A study of Mus musculus with 19 samples.

Results

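Genes that mark inhibitory and excitatory neurons were followed in ribosome-bound mRNA of mouse spinal cord cholinergic neurons. The 7 genes were Gad1, Gad2, Slc32a1, Slc6a5, Slc17a6, Slc17a7 and Tac1, which were taken by symbol from a table of 50559 genes and all of which passed the filter on low counts. They were chosen with the comparison between immunoprecipitates (IP) and Input in view, in which Gad1 stayed near the Input and the other 6 did not, so that comparison is given as a description without a test. The tests concern the time of day, which the rule of choice did not use, and relations of the genes to summed markers. Earlier results of these data were known when the genes were chosen.

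All animals were WT 10-wk-old male mice on a C57BL/6J background, carried ChAT-Cre and 1 copy of the RiboTag allele (ChAT-Cre;RiboTag fx/+) and were kept in a 12:12-h light/dark cycle. In RiboTag mice, Cre recombinase switches on a hemagglutinin (HA) tag on a ribosomal protein, and ChAT-Cre does so in cells that have expressed choline acetyltransferase, the enzyme that makes acetylcholine. Spinal cords were collected at Zeitgeber Time (ZT, hours after lights on) 0, 4, 8, 12, 16 and 20 with 3 biological replicates each, 1 spinal cord per sample, and the tagged ribosomes were precipitated with an HA antibody, which gave 18 IP libraries. A single Input library held RNA of the spun whole spinal cord homogenate before precipitation, pooled. The sources used here do not say which animals or time points entered the pool, and no precipitate from animals without Cre was analysed here.

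Fast transmission in the spinal cord rests on inhibitory interneurons that release GABA, glycine or both, and on excitatory interneurons and sensory afferents that release glutamate. Gad1 and Gad2 encode the forms of glutamate decarboxylase, which makes GABA. Slc32a1 encodes the vesicular transporter that loads both GABA and glycine, and Slc6a5 the plasma membrane transporter that returns glycine to glycinergic terminals. Slc17a6 and Slc17a7 encode vesicular glutamate transporters, the first used widely by spinal interneurons and the second by large sensory afferents and a part of the dorsal horn. Tac1 encodes the precursor of substance P and neurokinin A, peptides of many excitatory dorsal horn neurons. Spinal cholinergic neurons, most of them motor neurons and preganglionic autonomic neurons, are defined by acetylcholine synthesis.

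Slc17a6 and Slc6a5 were also among the genes for which the study listed PCR primers, and these are shown because they mark the part of each mRNA that a PCR with them would read. Matched to GENCODE M21 transcripts (GRCm38), each pair lay wholly in coding sequence, with the forward primer in exon 6 and the reverse primer in exon 7 of a gene on the plus strand of chromosome 7. The reverse primers are given as ordered, that is as the complement of the transcript.
Slc17a6 forward, chr7:51649155-51649176: cctatgctggagcagtcattgc
Slc17a6 reverse, chr7:51658709-51658731: ggctctcataagacaccagaagc
Slc6a5 forward, chr7:49927676-49927698: catttgtcagcgggagtgaagag
Slc6a5 reverse, chr7:49930078-49930099: tcctttcgccagtgatgcgtac
The Slc17a6 pair spans 138 bases and was found in 3 of 4 annotated transcripts of the gene, and the Slc6a5 pair spans 146 bases and was found in 4 of 4. No PCR values were used here. RNA-seq counts cover whole transcripts, so the levels below are not those of these amplicons alone.

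The IP libraries held between 6302140 and 22406850 expected counts. Levels are given as CPM, counts scaled to libraries of equal size, with library sizes set by TMM over all 19 libraries, a method that makes the bulk of genes equal between libraries. The labelled cell type was present in the precipitates. The summed level of 7 cholinergic markers was 4253 to 5084 CPM in the IPs against 450.3 CPM in the Input, and 6 of the 7 markers met the rule for enrichment given below. Chat was higher in 17 of 18 IPs and missed it through 1 library. The oligodendrocyte sum was 1541 to 2916 CPM against 21323 CPM, the astrocyte sum 511 to 815 CPM against 2988 CPM, and no cholinergic, oligodendrocyte or astrocyte marker was at 0 in any IP. Libraries of 1 time point differed by more than counting noise in all 18 pairs, most at ZT8 between replicates 1 and 2 and at ZT16 between replicates 2 and 3. None was a repeat deposit of another.

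Gad1 (chromosome 2, 70561303 to 70602014, GRCm38.p6 here and below) was close to its level in whole spinal cord. It was at 138 CPM in the Input (2592 counts) with an exact 95% Poisson interval of 132 to 143 CPM, and at 128 ± 12.8 CPM in the IPs (SD, n = 18). The lowest IP held 106 CPM, the median was 126 CPM and the highest IP held 157 CPM. The Input lay inside this range, with 14 IPs below it and 4 above it. The IP mean was 93.1% of the Input (89.6% to 96.8% from the counting error of the Input alone), a log2 ratio of -0.10. Intervals of this kind cover counting error only. A ratio this close to the Input was common, since 2518 of 16124 genes compared (15.6%) lay within 0.25 of it on the log2 scale, and 47.7% of genes had a lower ratio than Gad1. The median log2 ratio of genes with at least 20 Input counts was -0.13, so Gad1 stood 0.02 above that median. Scaling by library totals lowered the ratio of Gad1 to -0.43 and the median of genes to -0.45, a shift of -0.32, and left Gad1 0.03 above the median.

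Gad2 (chromosome 2, 22621015 to 22693877), which encodes the form of the enzyme that is concentrated at terminals, was at 67.5 CPM in the Input (1273 counts) and at 22.8 ± 3.55 CPM in the IPs. The lowest IP held 15.3 CPM, the median was 23.4 CPM and the highest IP held 27.3 CPM, so all 18 lay below the Input. The IP mean was 33.8% of the Input, a log2 ratio of -1.57. Both genes make the same product, yet they stood on different sides of the rule for depletion.

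Slc32a1 (chromosome 2, 158607260 to 158615747) was at 208 CPM in the Input and at 52.0 ± 11.8 CPM in the IPs, with a lowest value of 31.3, a median of 52.7 and a highest value of 71.3 CPM. The IP mean was 25.01% of the Input, a log2 ratio of -2.0. Slc6a5 (chromosome 7, 49906984 to 49963864), the marker of glycinergic neurons, was the most abundant of the 7 in the Input at 394 CPM and was at 99.0 ± 13.5 CPM in the IPs, from 72.2 through a median of 102 to 120 CPM. Its IP mean was 25.1% of the Input, a log2 ratio of -1.99. No IP of either gene reached the Input, and both genes kept about the same share of it.

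Slc17a6 (chromosome 7, 51621830 to 51671126) was at 156 CPM in the Input and at 56.1 ± 8.01 CPM in the IPs. The lowest IP held 41.5 CPM, the median was 54.5 CPM and the highest IP held 76.1 CPM, and the IP mean was 35.8% of the Input, a log2 ratio of -1.48. Of the 6 genes below the Input it kept the largest share. Slc17a7 (chromosome 7, 45163921 to 45176139) was rare already in the Input, at 6.31 CPM (119 counts, interval 5.23 to 7.55 CPM). In the IPs it had 109 counts in all, 0 to 20 per library, and its median was 0.267 CPM against a highest value of 1.25 CPM at ZT0 replicate 1. It was not detected at ZT12 replicate 1 and ZT16 replicate 3, where a count of 0 allows up to 0.258 and 0.230 CPM (3 counts). The IP mean of 0.394 ± 0.361 CPM was 6.25% of the Input (5.22% to 7.54%), a log2 ratio of -4.00, the lowest of the 7.

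Tac1 (chromosome 6, 7555061 to 7562978) was at 21.4 CPM in the Input (404 counts) and at 5.16 ± 1.64 CPM in the IPs. The lowest IP, ZT0 replicate 1, held 2.56 CPM, the median was 4.94 CPM and the highest IP, ZT4 replicate 2, held 9.24 CPM. The IP mean was 24.1% of the Input, a log2 ratio of -2.06, close to those of Slc32a1 and Slc6a5. All 18 IPs lay below the Input, each with 32 to 207 counts.

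A gene was called depleted where the IP mean was at least 2-fold below the Input and all 18 IPs lay below it, and enriched in the opposite case. By this rule 6 of the 7 genes were depleted and Gad1 was not, as the choice of the genes fixed. Among all 16124 genes compared, 23.3% were depleted and 15.2% enriched, or 30.2% and 9.46% with library totals, which kept the same 6 genes depleted. No gene lay near the 2-fold limit, the nearest inside it being Slc17a6. With a single Input library the ratios have no replicate check on that side, and in such bulk samples fewer cells of a type and less RNA per cell cannot be told apart. Markers of glia lay lower still, with list medians from -3.86 in microglia to -3.46 in oligodendrocytes on the log2 scale, against a median of -1.99 for the 7 genes. The part of RNA from other cells in the levels of the 7 genes was not tested.

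**Figure D1:**
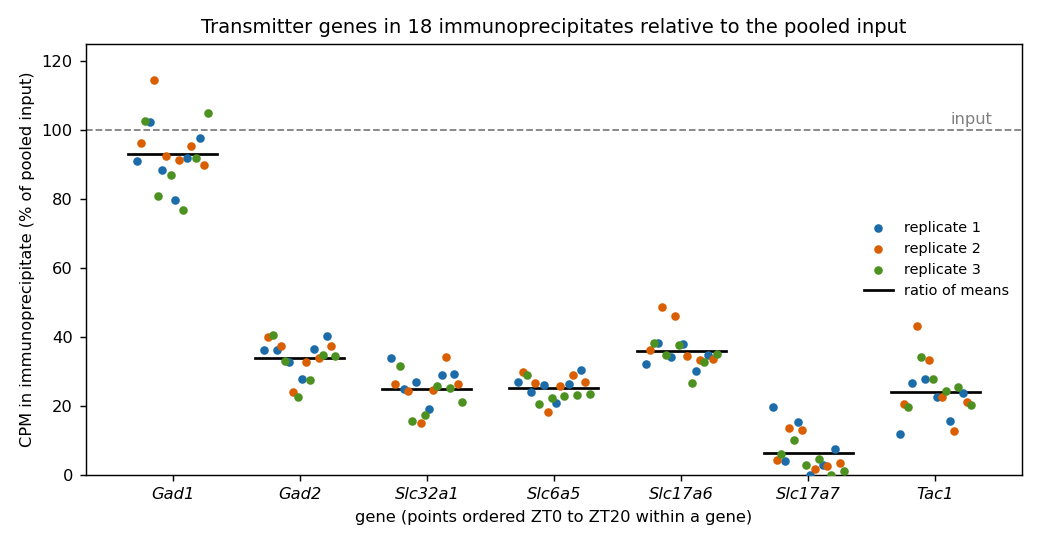
Level of each of the 7 genes in each of the 18 immunoprecipitates as a percentage of its level in the pooled Input (dashed line, 100%), with points coloured by replicate and ordered from ZT0 to ZT20 within a gene, and a black bar at the ratio of means. Gad1 spreads around a bar at 93.1%, whereas every point of the other 6 genes lies below 50%, with Slc17a7 lowest at 6.25%.

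Compared per length, Gad1 led the group in the IPs. Divided by the longest coding transcript in GENCODE M21, the IP level was 38.1 ± 3.83 CPM per kb for Gad1, 18.6 ± 4.21 for Slc32a1, 14.0 ± 1.91 for Slc6a5, 13.6 ± 1.94 for Slc17a6, 4.19 ± 1.34 for Tac1, 3.97 ± 0.618 for Gad2 and 0.135 ± 0.124 for Slc17a7. In the Input the order was Slc32a1 (74.3 CPM per kb), Slc6a5 (55.7), Gad1 (41.0), Slc17a6 (37.8), Tac1 (17.4), Gad2 (11.8) and Slc17a7 (2.17). Gad1 thus moved from the third to the first place and the order of the other 6 was the same. Within the IPs, Slc6a5 and Slc17a6 were not separated, as Slc6a5 was higher in 11 of 18 libraries, nor were Tac1 and Gad2 (10 of 18). Each of the other neighbours kept its order in 18 of 18 libraries. Gad1 has 5 annotated coding transcripts of unequal length, and with the length of all its exons joined it fell to 16.8 CPM per kb, below Slc32a1 at 18.6, so its first place depends on which transcript is assumed.

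Ratios between genes of the same library do not depend on how libraries are scaled. There were 2.04 Gad1 counts for each Gad2 count in the Input, and 4.89 to 7.88 in the IPs, with a median of 5.57. The ratio of Gad1 to Slc32a1 was 0.662 in the Input and 1.78 to 4.06 in the IPs, with a median of 2.42. All 18 IPs lay above the Input for both. The ratio of Slc6a5 to Slc32a1, which sets the glycine marker against the transporter shared by GABA and glycine neurons, was 1.895 in the Input and 1.51 to 2.51 in the IPs (median 1.96), with 10 IPs above the Input and 8 below it. The ratio of Slc17a6 to Slc32a1, the excitatory against the inhibitory vesicular transporter, was 0.753 in the Input and 0.713 to 2.29 in the IPs (median 1.01), with 16 above the Input.

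The genes that handle the same transmitters outside synthesis and packaging were mostly further below the Input. Of the 5 genes of GABA uptake and breakdown all 5 were depleted, with a median log2 ratio of -2.22. The lowest was Slc6a11, a GABA transporter of astrocytes, at 15.4 ± 4.31 CPM against 427 CPM in the Input (log2 ratio, -4.80), and the highest was Aldh5a1, which oxidizes the product of GABA breakdown, at 34.5 ± 5.94 against 75.8 CPM (-1.14). Of 3 glycine genes 2 were depleted, the lowest being Gldc of the glycine cleavage system at -3.00, whereas Shmt2, the mitochondrial enzyme that interconverts serine and glycine, was at 15.3 ± 3.2 CPM against 16.4 CPM (-0.10). Of 8 glutamate genes 4 were depleted. They ranged from Slc1a3, a glutamate transporter of astrocytes, at -5.09 to Slc1a1, a glutamate transporter of neurons, at 101.4 ± 11.7 CPM against 65.6 CPM (0.63), which was higher in 18 of 18 IPs without reaching 2-fold.

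Transcription factors of inhibitory and excitatory spinal neurons were largely depleted as well. Among 9 inhibitory factors with at least 20 Input counts 8 were depleted, with a median log2 ratio of -1.81. Lhx1 was lowest at -4.94 and En1, a factor of ventral inhibitory interneurons that contact motor neurons, was highest at -0.95, with all 18 IPs below the Input. Among 7 excitatory factors 5 were depleted, with a median of -1.38, and Lmx1b of the dorsal horn was lowest at -3.33. Gata3 and Sim1 had fewer than 20 Input counts and were not compared.

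The peptide genes went in both directions. Of 4 peptides of inhibitory neurons Npy was lowest at a log2 ratio of -1.98, and Gal, which encodes galanin, was enriched, at 13.6 ± 5.43 CPM against 5.84 CPM (1.23). Of 6 peptides of excitatory neurons 3 were depleted and 2 enriched. Tac2, which encodes neurokinin B and is the relative of Tac1, was lowest at 2.27 ± 0.772 CPM against 33.5 CPM (-3.89), and Nts, which encodes neurotensin, was highest at 72.5 ± 18.3 CPM against 13.5 CPM (2.42). Cck was also enriched. Of the 2 tachykinin receptors in the lists, Tacr1, the receptor of substance P, was at 51.4 ± 4.54 CPM against 12.6 CPM (2.02) and Tacr3, the receptor of neurokinin B, was at 0.857 ± 0.494 CPM against 8.65 CPM (-3.34). These lists were chosen as markers of other neurons, and several of their genes are known in motor neurons or other cells too.

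Markers of cells at the edge of the cholinergic population were checked alongside. Both markers of neurons that contact the cerebrospinal fluid, a GABAergic type of the central canal, were depleted (Pkd2l1 at -1.85 and Pkd1l2 at -2.40). Of the sensory neuron markers, Scn10a, Avil and Mrgprd were depleted and were at 0 in some IPs, with Avil lowest at -5.94. All 6 pan-neuronal genes stayed between -0.23 (Syt1) and 2.50 (Stmn2).

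**Figure D2:**
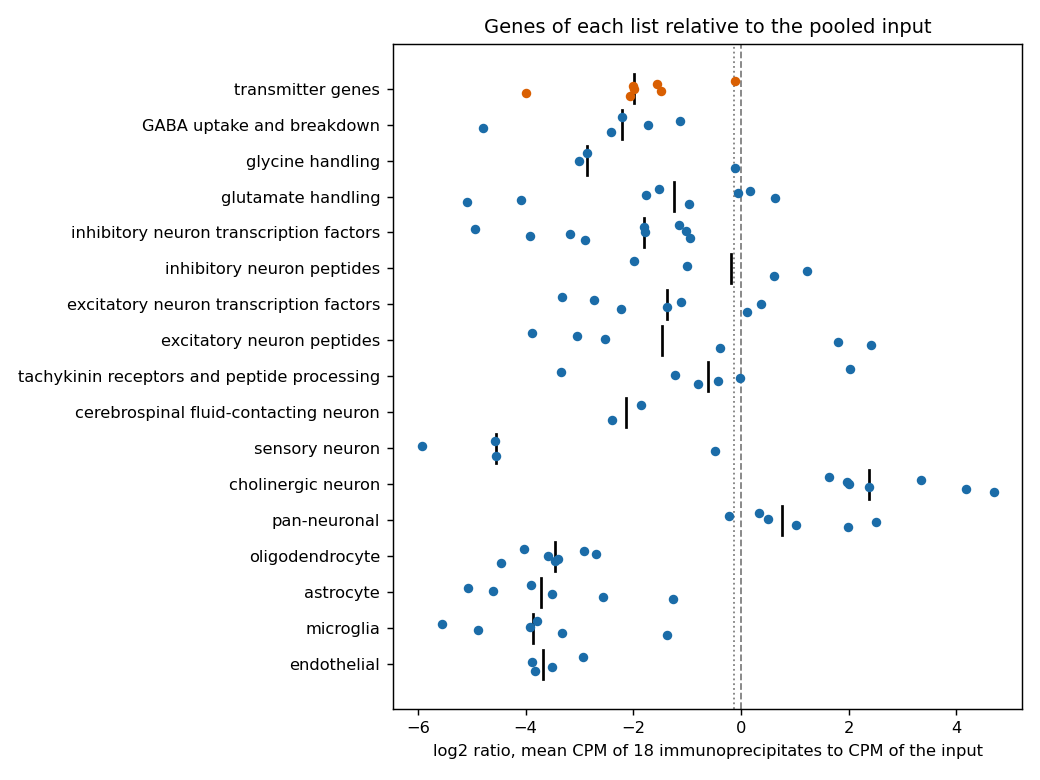
Log2 ratio of the mean CPM of the 18 immunoprecipitates to the CPM of the Input for each gene with at least 20 Input counts, by list, with black bars at list medians, a dashed line at the Input and a dotted line at the median of all such genes (-0.13). Transmitter genes (orange) centre on -1.99 with Gad1 alone near the Input, between the cholinergic list at 2.39 and the glial and endothelial lists at -3.46 or lower.

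Time of day was then tested in the 18 IPs, since Input was not part of these fits. A 24-h cosinor in edgeR (quasi-likelihood F-test, adjusted by Benjamini-Hochberg over 15572 genes) called 1 of the 7 genes, against a background of 6.24% of all genes tested (972 genes). The gene was Gad2, with an amplitude (mean to peak) of 0.26 on the log2 scale, a fitted peak at ZT 21.9 and an adjusted p of 0.0409. It was highest at ZT0 with 26.3 ± 1.53 CPM (SD over 3 animals, as for all time points) followed by 24.0 ± 1.5 CPM (ZT4) and 17.9 ± 3.73 CPM (ZT8), the lowest mean, and then 19.8 ± 1.97 CPM (ZT12), 23.6 ± 0.967 CPM (ZT16) and 25.3 ± 1.94 CPM (ZT20). The low values of ZT8 came from replicates 2 and 3 (16.2 and 15.3 CPM), while replicate 1 held 22.2 CPM. The call was weak. Leaving out single libraries kept it in 8 of 18 cases and lost it in 10, with adjusted p from 0.0550 without ZT0 replicate 3 to 0.122 without ZT8 replicate 3 among the latter. The other libraries whose removal lost it were replicates 1 and 2 of ZT16, replicate 1 of ZT12 and of ZT20, replicate 2 of ZT0, replicates 2 and 3 of ZT4 and replicate 2 of ZT8. With the summed oligodendrocyte level as a covariate the amplitude was 0.255 (0.256 without it) and the adjusted p 0.0857.

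The other 6 genes did not pass the cosinor. Their adjusted p was 0.0708 for Tac1 (amplitude 0.42, peak at ZT 6.39), 0.0968 for Slc6a5 (0.17, ZT 21.1), 0.0972 for Slc17a7 (1.36, ZT 3.75), 0.114 for Slc32a1 (0.27, ZT 19.9), 0.131 for Slc17a6 (0.17, ZT 4.70) and 0.247 for Gad1 (0.11, ZT 23.8). The fitted peaks of the 4 inhibitory genes fell in the dark phase and those of the 3 excitatory genes in the light phase (over all 15572 genes, 7860 fitted peaks fell in the dark phase), but a fitted peak is defined for any gene whether or not it varies. The amplitude of Slc17a7 rests on at most 20 counts per library and has little meaning. A test of any difference among the 6 time points (edgeR) called 0 of 7 against a background of 6.74%, with the lowest adjusted p for Gad2 (0.0637) and Tac1 (0.0717). At an unadjusted p under 0.05 this test held Gad2 (0.0058), Tac1 (0.0073) and Slc32a1 (0.0363), as it did 23.7% of all genes (3686). DESeq2 called 2 of the 7 in this test, Gad2 and Tac1, against a background of 19.5%, and the same 2 in the cosinor, against 17.5%. Slc17a7 had no adjusted p in DESeq2.

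JTK_Cycle, a rank test used here with an exact null distribution, called 0 of 7 with adjustment over all genes, where the background was 0.0385% (6 genes). The lowest adjusted p was 0.0814 for Gad2. The best period was 20 h for both Gad2 and Tac1, the shortest period allowed. With Bonferroni adjustment over the 18 templates of a gene alone it called 2 of 7, against a background of 15.8%. These were Gad2 (p so adjusted = 0.000292) and Tac1 (p so adjusted = 0.0122). The study also applied JTK_Cycle to rhythmic expression and reported far more rhythmic genes than passed here with adjustment over all genes. Its number was close to that found here with adjustment over the templates of a gene alone. The study named an FDR-adjusted p under 0.05 as its limit for rhythmicity. Among the chosen genes 0 passed with adjustment over all genes and 2 with adjustment over templates alone. The reason for the difference from the study was not tested.

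**Figure D3:**
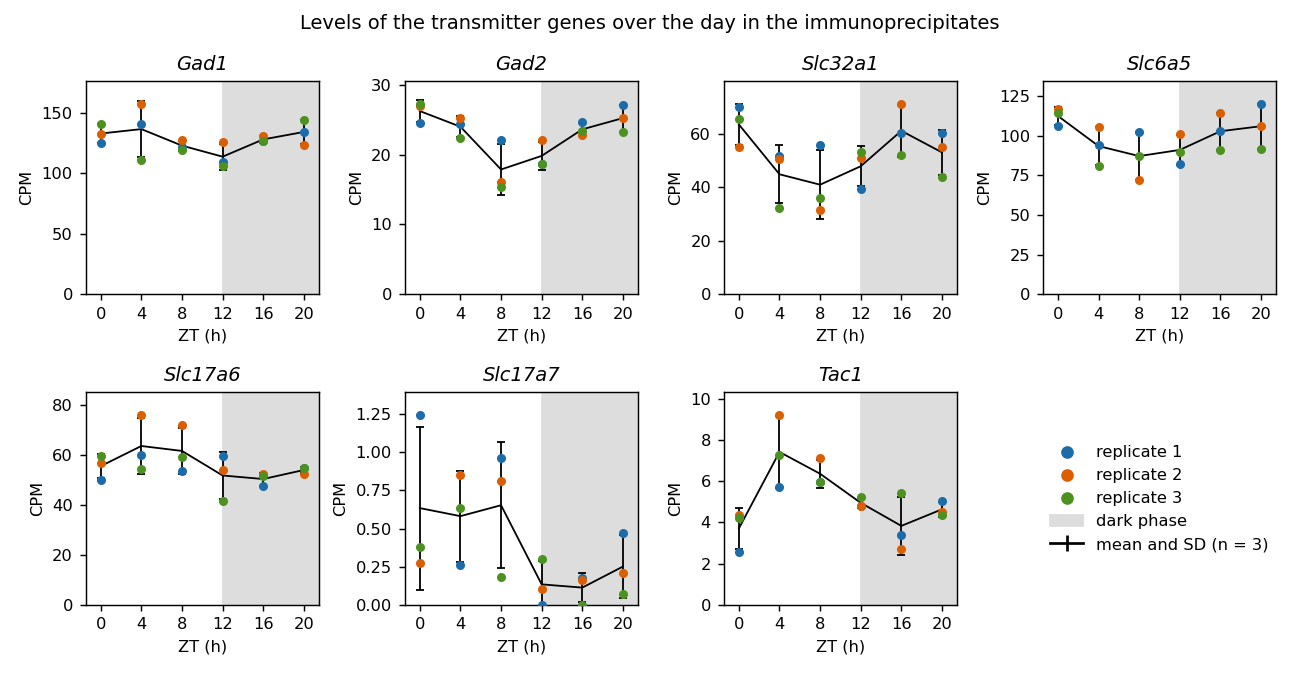
CPM of each of the 7 genes in the immunoprecipitates against Zeitgeber time, with points coloured by replicate, black lines at means with SD (n = 3) and the dark phase shaded. Gad2 is lowest at ZT8 (17.9 CPM) and highest at ZT0 (26.3 CPM), and Tac1 is highest at ZT4 (7.43 CPM) and lowest at ZT0 (3.71 CPM).

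Pairs of time points were compared in the same edgeR fit. Of 105 comparisons (7 genes by 15 pairs) 3 passed the adjusted threshold, all between ZT8 and ZT0, the pair with the most calls among all genes (18.0% of genes, 8.95% higher and 9.02% lower at ZT8). Among all genes 16.9% passed between ZT16 and ZT8 (9.11% higher and 7.80% lower at ZT16), 0.0642% between ZT16 and ZT4 (0.0514% higher and 0.0128% lower), 0.0321% between ZT12 and ZT0 (0.0257% higher and 0.00642% lower) and none in the other pairs. At ZT0 Gad2 was at 24.5, 27.0 and 27.3 CPM and at ZT8 at 22.2, 16.2 and 15.3 CPM. The log2 difference (ZT8 minus ZT0) was -0.54 with a standard error of 0.14 (adjusted p = 0.0129). For Slc32a1 the ZT0 libraries held 70.3, 55.0 and 65.5 CPM and the ZT8 libraries 55.7, 31.3 and 36.0 CPM, with replicate 1 of ZT8 above replicate 2 of ZT0. The difference was -0.62 with a standard error of 0.20 (adjusted p = 0.0380). Tac1 went the other way, from 2.56, 4.38 and 4.19 CPM at ZT0 to 5.97, 7.16 and 5.98 CPM at ZT8, a difference of 0.80 with a standard error of 0.28 (adjusted p = 0.0492).

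These 3 calls rested on few libraries. That of Gad2 was lost without ZT8 replicate 2 (adjusted p = 0.0816), ZT8 replicate 3 (0.0702) or ZT0 replicate 3 (0.0537). That of Slc32a1 was lost without ZT8 replicate 2 (0.191), ZT8 replicate 3 (0.138), ZT0 replicate 1 (0.146) or ZT0 replicate 3 (0.0989). That of Tac1 was the closest to the threshold and was kept when ZT4 replicate 1, ZT16 replicate 2 or ZT16 replicate 3 was left out, but lost when any other single library was (adjusted p from 0.0518 without ZT0 replicate 2 to 0.229 without ZT0 replicate 1). It was also lost with library totals (0.0638), upper-quartile scaling (0.0503) and filters of 10 counts (0.0717) or 1 count (0.107) in total. The number of passing comparisons was 0 without ZT8 replicate 2, ZT8 replicate 3 or ZT0 replicate 3, 1 without ZT0 replicate 1, 6 without ZT16 replicate 3 and 7 without ZT8 replicate 1. The share of all genes that passed in these fits was not counted. In all leave-outs the direction of the 3 differences stayed the same.

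The remaining genes showed smaller differences for the same pair or larger errors. Slc6a5 was at 113 ± 5.69 CPM at ZT0 and 87.2 ± 15.0 CPM at ZT8, a log2 difference of -0.35 with a standard error of 0.14 (adjusted p = 0.0765). Gad1 was at 133 ± 7.99 and 123 ± 4.09 CPM, Slc17a6 at 55.5 ± 4.89 and 61.5 ± 9.37 CPM and Slc17a7 at 0.634 and 0.653 CPM. The reverse comparison from ZT8 to ZT16 came close for the same 3 genes, with adjusted p of 0.0566 for Slc32a1, 0.0570 for Gad2 and 0.0672 for Tac1, against a background of 16.9%. Both pairs use the same ZT8 libraries. The largest time point mean of Tac1 was at ZT4 (5.74, 9.24 and 7.30 CPM), a log2 difference from ZT0 of 1.02 with a standard error of 0.28 (adjusted p = 0.111).

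Other markers moved between these time points as well. The astrocyte sum was 773 ± 36.4 CPM at ZT0 and 574 ± 66.1 CPM at ZT8, 86.7% of it from Aldoc on average, and the oligodendrocyte list included Mbp, which differed among time points (adjusted p = 0.0263). The cholinergic sum was 4665 ± 212 CPM at ZT0 and 4427 ± 257 CPM at ZT8. Prph, which encodes peripherin, made up 63.7% of it, and the other 6 cholinergic markers summed to 2067 ± 212 CPM at ZT0 and 1222 ± 404 CPM at ZT8. The only covariate fit used the oligodendrocyte sum, which was 2050 ± 203 CPM at ZT0 and 1872 ± 134 CPM at ZT8. With it the ZT8 to ZT0 differences of Gad2, Slc32a1 and Tac1 passed in edgeR (adjusted p of 0.0163, 0.0439 and 0.0294). The share of all genes that passed there was not counted. That fit does not address the astrocyte or cholinergic sums, whose part in the differences of these genes was not tested.

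The balance of the excitatory and inhibitory vesicular transporters within a library was also followed over time, without a test. The ratio of Slc17a6 to Slc32a1 had its highest mean at ZT8 (1.63 ± 0.666), followed by ZT4 (1.45 ± 0.267), ZT12 (1.116 ± 0.369), ZT20 (1.03 ± 0.187), ZT0 (0.885 ± 0.160) and ZT16 (0.835 ± 0.133). The libraries spanned 1.16 to 1.68 at ZT4, 0.713 to 1.03 at ZT0 and 0.963 to 2.29 at ZT8. The ratio of Gad1 to Gad2 was highest at ZT8, where replicates 2 and 3 stood at 7.88 and 7.79 and replicate 1 at 5.49, and it was 5.06 ± 0.141 at ZT0. The ratio of Gad1 to Gad2 was not tested either.

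**Figure D4:**
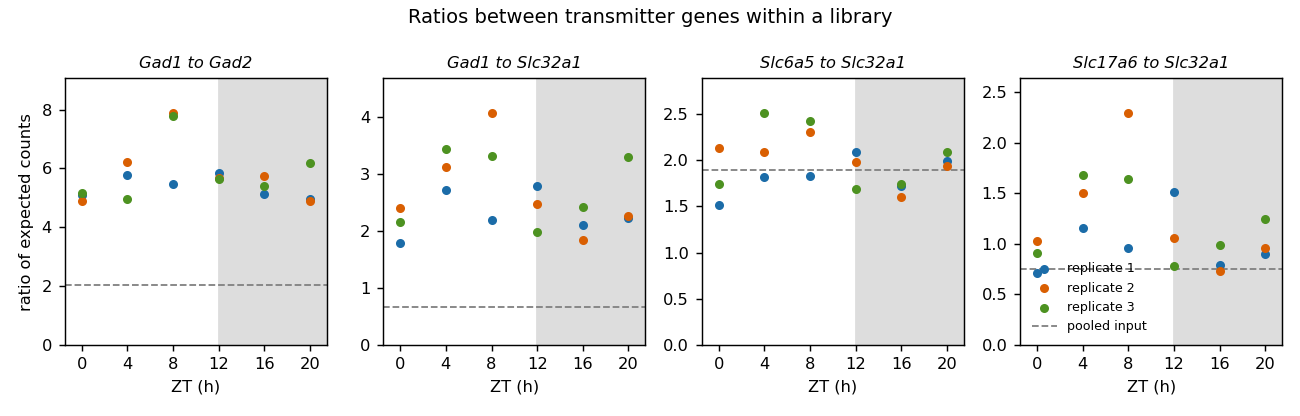
Ratios of expected counts between genes of the same library against Zeitgeber time, with points coloured by replicate, the pooled Input as a dashed line and the dark phase shaded. Both Gad1 ratios lie above the Input in all 18 immunoprecipitates, whereas the ratio of Slc6a5 to Slc32a1 scatters around the Input value of 1.895.

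The genes of the surrounding pathways and the markers were read in the same time tests. Of 84 list genes tested other than the 7, the cosinor called 6 (7.14%, against 6.24% of all genes), the test of any difference 9 (10.7%, against 6.74%) and JTK_Cycle 0 with adjustment over all genes. Among genes of GABA handling, Abat, which breaks down GABA, passed the cosinor (amplitude 0.25, peak at ZT 19.7, adjusted p = 0.0430) and Slc6a11 the test of any difference (adjusted p = 0.0261). Gls2, a glutaminase that makes glutamate, passed the cosinor (0.38, ZT 19.3, adjusted p = 0.0487). Of the peptide genes, Gal passed both (0.66, ZT 9.58, adjusted p = 0.0345 and 0.0228), and Cck and Nts passed the test of any difference (adjusted p = 0.0397 and 0.0409). Pcsk2, a convertase that cuts peptide precursors, passed both (0.33, ZT 19.2, adjusted p = 0.0414 and 0.0258). Among markers, Slc18a3, the vesicular acetylcholine transporter, and Eno2 passed both, and Mbp and Aldoc the test of any difference. No glycine gene and no transcription factor of either list passed.

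Spread between animals was next compared. The coefficient of variation of the 18 IPs was 10.0% for Gad1, 13.7% for Slc6a5, 14.3% for Slc17a6, 15.5% for Gad2, 22.7% for Slc32a1, 31.9% for Tac1 and 91.6% for Slc17a7. Counting error alone would give 2.49%, 2.83%, 3.77%, 5.88%, 4.02%, 12.8% and 63.0% in the same order, with counts of 0 taken as 1. After removal of time point differences, the biological coefficient of variation fitted by edgeR was 17.3% for Slc32a1, higher than that of 93.0% of genes of similar level, and 11.5% for Gad2, higher than that of 13.8%. Slc32a1 was thus the most variable of the 6 well-counted genes relative to its level and Gad2 the least.

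The 3 genes most like each member over the 18 IPs, by Pearson's r of log2 CPM, are given as a description. For Slc32a1 they were Slc38a1 (r = 0.96), Spg20 (0.96) and G6pdx (0.95), and 760 genes had an r above 0.8 with it. For Tac1 they were Tiprl (0.91), LOC108169181 (0.88) and Pttg1 (0.88), with 248 such genes. For Slc6a5 they were Asap1 (0.92), Capza1 and Epha4, and for Slc17a6 Slc25a46 (0.89), Ccpg1 and Mfap3l. Gad2 was most like Popdc3 (0.86), Btbd3 and Txnl1, Gad1 like Ube2d3 (0.80), Septin7 and Slc39a10, and Slc17a7 like Ddx4 (0.78), Kbtbd11 and LOC118568563. Among the 7 genes themselves, the r was 0.86 between Slc32a1 and Slc6a5, 0.78 between Gad2 and Slc6a5 and 0.68 between Gad2 and Slc32a1, and it was -0.68 between Slc32a1 and Tac1. All values share libraries and their scaling.

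Levels of the 7 genes were then set against the summed cholinergic and oligodendrocyte markers over the 18 IPs (14 relations, 2-sided permutation tests with 100000 resamples, Benjamini-Hochberg over the 14). Only Slc17a6 passed, as it was lower where the cholinergic sum was higher (Pearson's r = -0.75, permutation p = 0.0001, adjusted p = 0.0014, and Spearman's rho = -0.69, permutation p = 0.00209, adjusted p = 0.0293). Without the libraries farthest from the median sum (ZT4 replicate 2 and ZT8 replicate 2) r was -0.57, and after subtraction of time point means it was -0.61. Gad1 had an r of -0.58 (permutation p = 0.0108, adjusted p = 0.0758), which was -0.75 within time points, and Tac1 an r of -0.50 (adjusted p = 0.167). No relation to the oligodendrocyte sum passed, the lowest adjusted p by Pearson's r being 0.421 for Slc17a6 (r = -0.38). By Spearman's rho the lowest was 0.0647, also for Slc17a6 (rho = -0.57). How many of all genes relate to either sum was not counted.

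The outcome depended on Prph. When it was left out of the cholinergic sum, an alternative added after the data had been seen, 5 relations passed by Pearson's r. Slc32a1 had an r of 0.87 (rho = 0.93, permutation p = 1e-05 for both, the smallest these permutations can give, adjusted p = 0.00014), Slc6a5 an r of 0.73 (adjusted p = 0.0028) and Gad2 an r of 0.61 (adjusted p = 0.0221), all higher where the 6 remaining markers were higher. Tac1 had an r of -0.79 (adjusted p = 0.00028) and Slc17a6 an r of -0.68 (adjusted p = 0.00759). By Spearman's rho Gad2 did not pass (rho = 0.48, adjusted p = 0.111). The unchanged relation of Slc17a6 to the oligodendrocyte sum did pass by rho in this set (rho = -0.57, adjusted p = 0.0388). Without ZT8 replicates 2 and 3, the libraries farthest from the median, r was 0.77 for Slc32a1, 0.56 for Slc6a5, -0.85 for Tac1 and -0.57 for Slc17a6, but 0.16 for Gad2, whose relation thus rested on those 2 libraries. After subtraction of time point means r was 0.77 for Slc32a1, 0.62 for Slc6a5, -0.59 for Tac1 and -0.59 for Slc17a6. Gad1 had an r of -0.07. The astrocyte sum gave relations in the same directions (r of 0.72 for Slc32a1, -0.74 for Slc17a6 and -0.73 for Tac1, adjusted p of 0.0029, 0.00243 and 0.00243), and without ZT8 replicates 2 and 3 these were 0.48, -0.68 and -0.78.

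**Figure D5:**
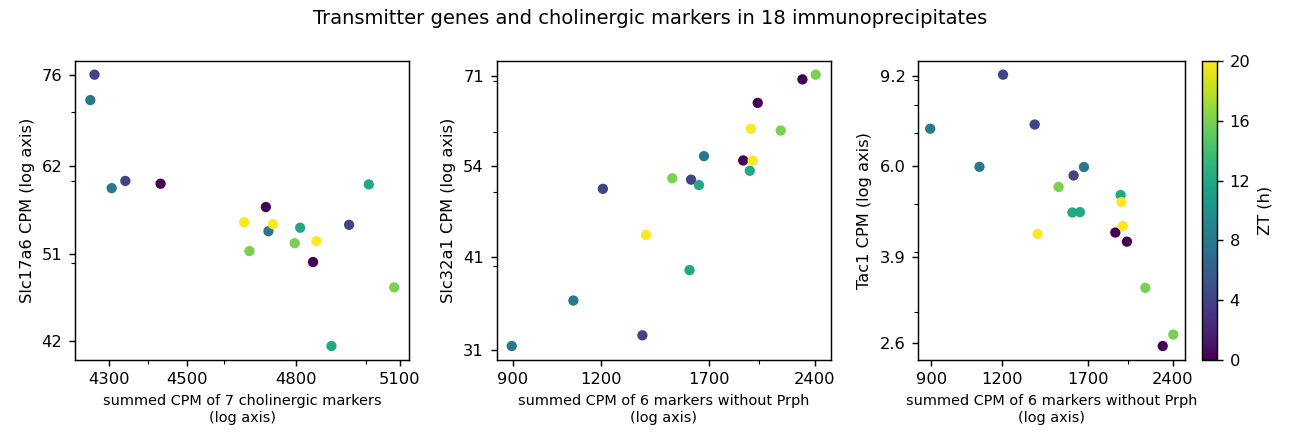
Level of Slc17a6 against the summed level of 7 cholinergic markers, and of Slc32a1 and Tac1 against the sum of 6 markers without Prph, in the 18 immunoprecipitates (CPM, log axes), coloured by Zeitgeber time. Slc17a6 falls with the full sum (r = -0.75), while Slc32a1 rises (r = 0.87) and Tac1 falls (r = -0.79) with the sum without Prph.

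Promoter sequence was searched for letters that factors of the circadian clock and of cAMP signalling are known to bind, in the 250 bases upstream of each RefSeq start (GRCm38.p6, 9 windows for the 7 genes). The E-box CACGTG was found in 1 of the 9 windows, that of Tac1, and in 6.02% of 32851 windows of all genes. The D-box TTATGTAA (0.819% of all windows) and the element TGACGTCA (1.55%) were in none, with both strands read and no overlap between the motifs. The 30 bases around the Tac1 match are shown because Tac1 is the one gene of the group that holds it, with the E-box in capitals, and the match ends 55 bases upstream of the start.
Tac1 E-box, chr6:7554988-7555017, plus strand: tggggagagtgtCACGTGgctctacaggct
The match is a description of sequence only, and binding there was not measured in these data.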

How the data were processed

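Ribosome-bound mRNA of 18 spinal cord IPs (6 time points, 3 replicates each) and 1 pooled Input was analysed. The authors deposited RSEM expected counts per gene, not normalized, made from 150-bp paired-end stranded libraries aligned with STAR 2.7.5 to mm10 and quantified with RSEM, and all columns were matched to samples by name. RSEM divides reads that match several genes, so 1.90% to 3.68% of a library's entries carried a fraction, and all were rounded. Gad1os, antisense to Gad1, is a separate entry with 6 counts or fewer in each library.

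Genes kept by filterByExpr (15572) were fitted on the 18 IPs with edgeR 4.0.16 (TMM, quasi-likelihood F-tests, Benjamini-Hochberg adjusted p under 0.05, prior count 2) under R 4.3.3. The spread between animals of a time point was 19.2% (common biological coefficient of variation). Printed CPM used TMM over 19 libraries, which moved values by at most 2.04%. JTK_Cycle used periods of 20, 24 and 28 h with an exact null. Ratios to the Input covered 16124 genes that passed that filter or had at least 20 Input counts. Scripts were tested on simulated data. Permutation tests used Python 3.11.15. DESeq2 1.42.0 was an alternative.

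The 7 genes, the lists and most alternatives were chosen with earlier results of these data known. Genes named were the 7, the 3 most correlated with each, genes at the extremes of each list by ratio, list genes that passed a time test, and the markers named as checks. Other list genes named in the text (Cck for its ratio, Pkd1l2, Scn10a, Mrgprd, Chat, Gata3 and Sim1) were chosen after their values were seen. Values of 2 list genes are not reported here. Replicates were separate animals. Primer sequences came from the supplementary tables of the study and were matched to GENCODE M21, and positions and promoters came from RefSeq GRCm38.p6. Protein sequences were not used here.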

Additional observations from a re-analysis of the deposited data

How the results depend on the processing

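All 6 depleted genes stayed depleted, and Gad1 not, under other scalings (DESeq2 size factors, library totals, upper quartile), a ratio of medians, a 1.5-fold limit and without each replicate number. The time results were less stable, and the cause was not tested. The cosinor called 2 of the 7 genes with a filter of 1 count in total (Gad2 and Slc32a1) and 2 with DESeq2 (Gad2 and Tac1). DESeq2 also called more of all genes in the cosinor, 17.5% against 6.24% with edgeR. The cosinor called 0 with the oligodendrocyte covariate, and 0 to 3 when 1 library or replicate number was left out (2 without ZT16 replicate 3, 3 without ZT20 replicate 3). The test of any difference called 1 with the filter of 1 count and 2 with DESeq2 (19.5% of all genes, against 6.74% with edgeR), and 0 to 2 in leave-outs (2 without ZT8 replicate 1, 1 without ZT16 replicate 3). Of the 105 pairwise comparisons 7 passed with the filter of 1 count and 9 with DESeq2, against 3, and 0 to 7 in leave-outs (7 without ZT8 replicate 1, 6 without ZT16 replicate 3, 0 without ZT8 replicate 2, ZT8 replicate 3 or ZT0 replicate 3). JTK_Cycle called 2 with adjustment within the gene (15.8% of all genes). For the other alternatives of the time tests the share of all genes was not counted. A changed number of calls there is thus not read as a change in the 7 genes. Relations to marker sums numbered 7 with astrocyte in place of oligodendrocyte markers and 5 with the cholinergic sum without Prph, both by Pearson's r, against 1. They numbered 4 with astrocyte markers without Aldoc, and 0 to 3 without a replicate number. The sums without Aldoc and without Prph were added after seeing the data. No share of all genes stands beside these numbers of relations. Replicate numbers did not pair the animals (correlation of deviations for the same number, -0.151 to 0.176, median -0.00416, with 4 of 45 pairs over 0.1). With the replicate block, JTK_Cycle called 1 gene against 0, the pairs called were 4, and the cosinor still called 1. Slc17a7 and Tac1 are limited by depth, with at most 20 and 207 counts per IP. No alternative reversed a called direction.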
